A study of Homo sapiens with 8 samples.

Results

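Heat shock proteins and chaperones are the proteins that help other proteins fold, keep them soluble and pass those that cannot be refolded to degradation. The members described here are the probe sets of an Affymetrix HG-Focus array (a short-oligonucleotide expression array) that carry exactly 1 gene symbol, that symbol starting with HSPA, HSPB, HSPD, HSPE, HSPH, HSP90 or DNAJ, with CCT and a digit, or being TCP1. The rule found 41 probe sets for 40 genes, of 7713 genes with such a probe set, among 8746 probe sets that are not array controls, of which 7840 carry 1 symbol. Of the 41, 37 probe sets for 36 genes passed the filter on low signals and were tested, and HSPA1L, HSPB3, HSPB7 and CCT8L2 did not pass. A further 6 probe sets name several genes, at least 1 of them fitting the rule, and were left out, so no value is given for HSPA1A or HSPA1B, the main heat-inducible HSP70 genes. The rule also found no probe set for HSPA5, HSPA8, HSP90B1 or TCP1.

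RNA came from 2 human breast cancer cell lines, ZR75-1 (estrogen receptor positive per the labels) and SKBR3 (estrogen receptor negative per the labels). The 4 groups had 2 arrays each and were ZR75-1 cells given the HSD17B14 plasmid, ZR75-1 cells given the empty vector, SKBR3 cells given the HSD17B14 plasmid and SKBR3 cells given the empty vector. HSD17B14 encodes a steroid dehydrogenase that converts estradiol to the less active estrone. The medium of all groups was Optimem-I free of phenol red, with serum at 4%. Transfection used FuGene-6 and took place 24 h after the cells were seeded, and RNA was taken after a further 48 h. The vector groups were transfected too, so no group here was left untransfected. The labels do not say that duplicates were separate cultures, so p-values measure the spread between arrays of a group, which may be technical.

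In cells, the small heat shock proteins hold unfolded proteins in large assemblies without using ATP. HSP70 proteins bind and release their clients in an ATP-driven cycle that J-domain proteins start and nucleotide exchange factors, HSP110 among them, complete. HSP90 acts later on kinases and steroid receptors, the unliganded estrogen receptor included. The CCT chaperonin, also called TRiC, folds actin and tubulin inside a ring, and HSPD1 with its lid HSPE1 does similar work in mitochondria. Under heat or proteotoxic stress the transcription factor HSF1 binds heat shock elements, inverted repeats of GAA and TTC, and raises many of these genes. In breast cancer, HSPB1 and HSPB8 are known as genes whose expression follows estrogen receptor activity.

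Letters of the heat shock element stood in the promoters of a larger share of member genes than of all genes. RefSeq windows on GRCh38.p14, from 250 bases before to 50 bases after a gene's start, were at hand for 36 of the 40 member genes and for 27305 genes in all, and none was at hand for CCT6A, DNAJC1, HSPA14 or HSPB2. Some genes have several starts, with a window for each, and a gene was counted if any of its windows matched. A run of 3 units, alternately GAA and TTC with any 2 bases between them, in either order, stood in 5 of 36 member genes (13.9%), against 166 of 27305 genes (0.608%). The shorter 2-unit form, GAANNTTC or TTCNNGAA, which lies inside every match of the longer one, stood in 17 of 36 (47.2%), against 16.2% of all genes. The CCAAT box (CCAAT or ATTGG) stood in 14 of 36 (38.9%), against 39.7%, so its share was near that of all genes. Neither the palindromic estrogen response element (GGTCA, any 3 bases, TGACC) nor the endoplasmic reticulum stress element (CCAAT, any 9 bases, CCACG, on either strand) was in any window of the 36 genes. They stand in 0.0732% and 0.0916% of all genes. A match is a string of letters and not a shown binding site. The 5 genes with the longer form are shown, with the matching letters in capitals, because they include the stress-inducible HSPA6 and HSP90AA1 and also HSPD1, which had the smallest p for a difference of plasmid effects.
DNAJA1, chr9:33025270-33025294, plus strand: cgggcgGAACTTTCCAGAAcgctcg
HSP90AA1, chr14:102087114-102087138, minus strand: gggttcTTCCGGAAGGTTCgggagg
HSP90AB1, chr6:44247772-44247796, plus strand: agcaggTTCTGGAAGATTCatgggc
HSP90AB1, chr6:44247825-44247849, plus strand: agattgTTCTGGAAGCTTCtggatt
HSPA6, chr1:161524460-161524484, plus strand: gaaaggTTCGCGAAAGTTCgcggcg
HSPD1, chr2:197500062-197500090, minus strand: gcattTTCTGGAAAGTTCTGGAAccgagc

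The windows of the 3 members with the largest line differences measured on both sides are printed whole, with 2-unit matches in capitals. HSPB1 has 1 such match, HSPB8 has 2, of which 1 lies just after the start, and HSPA13 has 0.
HSPB1 promoter window, chr7:76302423-76302722, plus strand: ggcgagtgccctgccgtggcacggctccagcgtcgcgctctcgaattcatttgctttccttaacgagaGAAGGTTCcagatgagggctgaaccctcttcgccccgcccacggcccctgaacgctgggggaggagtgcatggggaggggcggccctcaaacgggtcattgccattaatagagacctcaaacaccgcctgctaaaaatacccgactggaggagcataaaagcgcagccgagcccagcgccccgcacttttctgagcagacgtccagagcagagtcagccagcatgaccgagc
HSPB8 promoter window, chr12:119178681-119178980, plus strand: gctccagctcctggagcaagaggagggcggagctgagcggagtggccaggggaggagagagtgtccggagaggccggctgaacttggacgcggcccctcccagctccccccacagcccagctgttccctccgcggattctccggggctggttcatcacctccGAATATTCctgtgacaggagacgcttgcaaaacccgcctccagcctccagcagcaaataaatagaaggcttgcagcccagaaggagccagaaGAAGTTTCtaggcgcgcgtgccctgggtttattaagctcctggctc
HSPA13 promoter window, chr21:14383097-14383396, minus strand: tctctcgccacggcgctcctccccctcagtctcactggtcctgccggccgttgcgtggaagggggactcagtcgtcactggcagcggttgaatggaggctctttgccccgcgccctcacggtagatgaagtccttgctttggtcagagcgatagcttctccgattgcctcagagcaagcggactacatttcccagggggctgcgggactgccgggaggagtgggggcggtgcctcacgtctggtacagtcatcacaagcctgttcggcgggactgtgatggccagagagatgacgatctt

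The plasmid's own gene followed the labels. HSD17B14 had signals of 107.5 and 135.3 on the ZR75-1 HSD17B14 arrays, against 17.8 and 2.1 on the ZR75-1 vector arrays, and 650.7 and 743.6 on the SKBR3 HSD17B14 arrays, against 2.0 and 4.2 on the SKBR3 vector arrays. The line labels were less well borne out. ERBB2, amplified in SKBR3, had 95.9 to 226.0 on the ZR75-1 arrays but only 25.9 to 46.8 on the SKBR3 arrays, which also carried 3646.2 to 5325.8 of the mesenchymal marker VIM (0.4 to 25.7 in ZR75-1) and 26.8 to 58.1 of the epithelial marker CDH1 (1074.7 to 1508.4 in ZR75-1). On the SKBR3 arrays KRT18 had 2786.8 to 4602.3, KRT19 652.4 to 793.6, KRT8 360.3 to 499.6 and EPCAM 119.4 to 182.0. These epithelial markers were thus measured there, though lower than in ZR75-1 (7006.5 to 9893.8, 3433.4 to 4300.7, 2252.4 to 2529.6 and 591.5 to 1056.3). VIM alone of the mesenchymal markers measured was high on the SKBR3 arrays. COL1A1 went the other way, with 21.8 to 50.4 in ZR75-1 and 3.4 to 14.4 on the SKBR3 arrays. COL1A2 (11.7 to 13.6 and 3.2 to 28.5) and SPARC (0.4 to 9.7 and 0.4 to 1.1) were low in both. ESR1 was 194.5 to 341.6 on the ZR75-1 arrays and 14.9 to 24.6 on the others. GATA3 was 1220.8 to 1638.8 on the ZR75-1 arrays and still 284.0 to 416.4 on the others. TFF1 was 1874.1 to 2767.7 and 962.4 to 1073.3. The second line is therefore called SKBR3-labelled below, and no result for it is read as a property of SKBR3. Of 3 leukocyte markers, PTPRC and CD14 lay on all 8 arrays under the floor, and CD3D was above it on 1 array (30.8 on ZR75-1 vector array 1). The floor is a signal of 17.6, which is the largest 40th percentile found on any array and marks where signals were taken as too low to read. Every array had a trimmed mean of 100.1, and arrays of a group correlated at 0.888 to 0.96. SKBR3-labelled vector array 1 stood apart from the other 3 arrays of its line, with correlations of 0.894 to 0.899, where those 3 correlated at 0.946 to 0.96 among themselves.

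**Figure D1:**
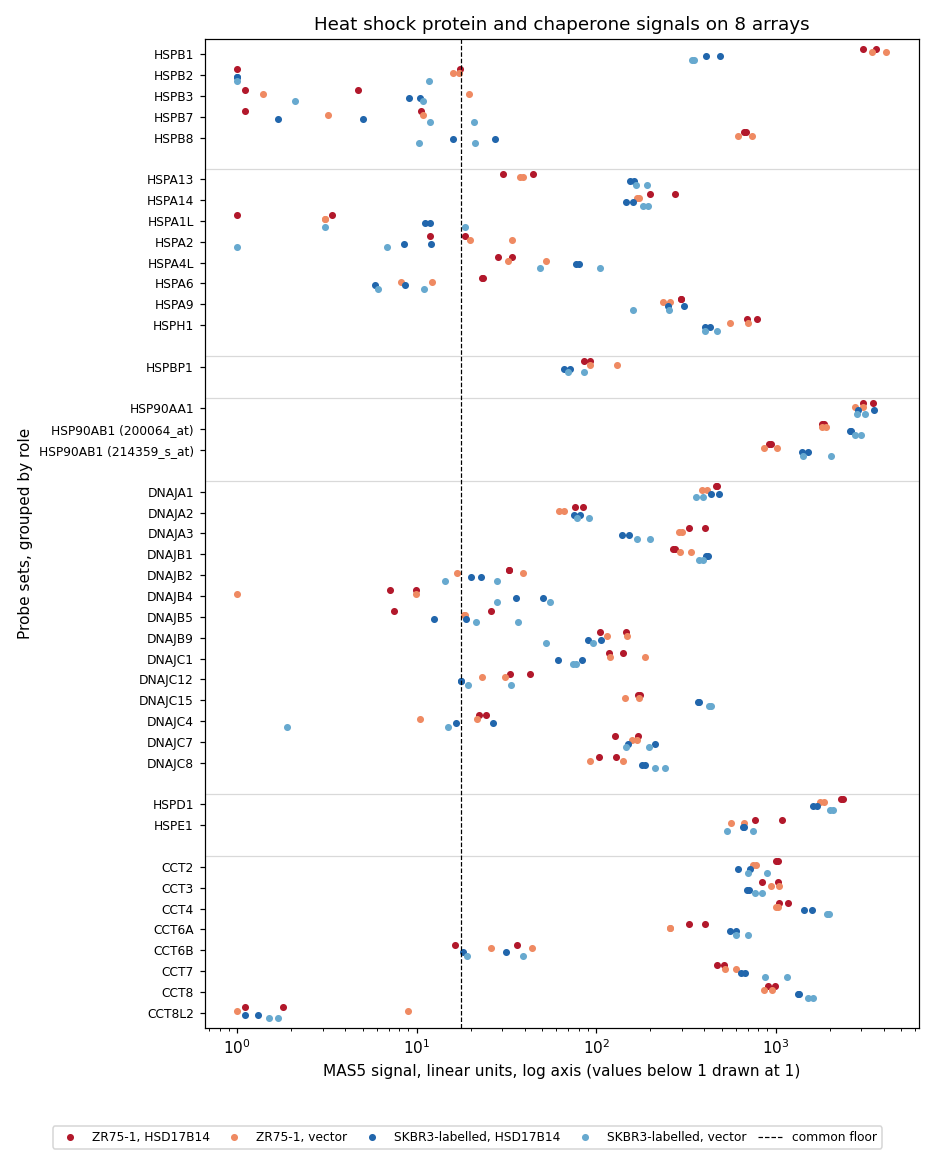
Signal of each of the 41 member probe sets on the 8 arrays, grouped by role. The horizontal axis is the MAS5 signal in linear units on a log axis, each point is 1 array, and the dashed line is the common floor of 17.6. The arrays of the 2 lines lie far apart for HSPB1, HSPB8 and HSPA13, while those of HSP90AA1 overlap.

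The first comparison asked which chaperones followed the HSD17B14 plasmid. None of the 37 tested members passed in either line. A call needed an adjusted p under 0.05 over all 6251 tested probe sets in limma. In ZR75-1, 1.52% of all tested probe sets were called (46 or 0.736% higher and 49 or 0.784% lower), against 0 of 37 members, whose smallest adjusted p was 0.114. In the SKBR3-labelled line 0.992% of all were called (59 or 0.944% higher and 3 or 0.048% lower), against 0 of 37, with 0.183 as the smallest. Averaged over both lines 1.5% of all were called (76 or 1.22% higher and 18 or 0.288% lower), against 0 of 37 (smallest adjusted p 0.136). At an unadjusted p under 0.05, 5 members were higher and 0 lower in ZR75-1, where 8.35% of all probe sets were higher and 9.61% lower. The same threshold held 2 higher and 3 lower in the SKBR3-labelled line, where the shares of all probe sets were 4.96% and 3.82%. In the average it held 3 higher and 1 lower, beside 6.83% and 7.33% of all. The 95% intervals of the plasmid effect reached a median of 0.46 to each side of the estimate on the log2 scale in either line, and under 1 for 28 of 37 members. The widest reached 3.88 to each side in either line. Changes of any size within a member's own interval are thus not shown to be absent.

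Members with the smallest p in ZR75-1 were CCT6A and CCT2 of the CCT ring, the mitochondrial chaperonins HSPD1 and HSPE1, the HSP70 HSPA14 and the J-domain protein DNAJA3, and none passed. CCT6A, a chaperonin subunit, had signals of 328.6 and 403.2 with HSD17B14, against 259.2 and 258.7 with vector, a log2 change of 0.49 ± 0.15 (limma SE, n = 2 arrays per group, adjusted p 0.114). CCT2, another subunit of the ring, had 1025.2 and 1001.8 with HSD17B14, against 747.4 and 779.2 with vector, a log2 change of 0.41 ± 0.15 (adjusted p 0.188). In both, each HSD17B14 array lay above each vector array. The mitochondrial pair gave the same picture. HSPD1 had 2375.1 and 2318.7 with HSD17B14, against 1855.4 and 1766.8 with vector (log2 change 0.37 ± 0.13, adjusted p 0.166). HSPE1, its lid, had 767.4 and 1080.2 with HSD17B14, against 560.5 and 668.5 with vector (log2 change 0.57 ± 0.20, adjusted p 0.156). HSPD1 and HSPE1 are known to share a bidirectional promoter. HSPA14, an HSP70 found at ribosomes, had 276.3 and 199.5 with HSD17B14, against 169.8 and 172.3 with vector (log2 change 0.46 ± 0.18, adjusted p 0.218). DNAJA3, a mitochondrial J-domain protein, had 405.7 and 329.8 with HSD17B14, against 289.5 and 301.2 with vector (log2 change 0.31 ± 0.17, adjusted p 0.366). All 6 thus had separate groups. Such separation towards higher values was seen in 14 of 37 members and towards lower values in 3, where 20.7% and 26.3% of all tested probe sets separated that way. The members' median log2 change was 0.06, against -0.04 over all probe sets. On a scale that centres each array on its median, the ZR75-1 median of all probe sets moves to 0.16 and that of the members to 0.26, with 29 members above 0 and 8 below, in place of 21 and 16.

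None of the stress-inducible members HSPA6, DNAJB1, HSPH1, HSPB1, HSPB8, HSP90AA1 and HSPA4L passed in ZR75-1. HSPA6, an HSP70 that is strictly stress-induced, had 23.2 and 23.4 with HSD17B14, against 8.2 and 12.2 with vector. The vector arrays lie under the floor, so the HSD17B14 signal was at least 1.32-fold higher, and the fit gave an adjusted p of 0.45. With all signals raised to the floor, HSPA6 passed (log2 change 0.4, adjusted p 0.0357), the only member to do so in this line under any alternative tried. That setting gives HSPA6 the same value on every array but the 2 HSD17B14 arrays of ZR75-1. It thus leaves almost no spread between arrays, and no change is read from that pass. Those 2 arrays are also the only ones through which HSPA6 passed the filter on low signals. DNAJB1, the J-domain partner of inducible HSP70, pointed the other way, with 276.3 and 269.1 with HSD17B14, against 293.8 and 336.6 with vector (log2 change -0.21 ± 0.14, adjusted p 0.475). HSPH1, an HSP110, had 691.8 and 784.0, against 698.0 and 556.1 with vector (adjusted p 0.453). HSPB1 and HSPB8 had log2 changes of -0.18 and 0.01 (adjusted p 0.595 and 0.997), and HSP90AA1, the inducible HSP90, one of 0.16 (adjusted p 0.654). Their 95% intervals all held 0.

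In the SKBR3-labelled line all 7 tested CCT probe sets had log2 changes below 0, and none passed. CCT7 had 641.5 and 678.2 with HSD17B14, against 1150.7 and 867.1 with vector, a log2 change of -0.6 ± 0.16 (adjusted p 0.183). CCT4 had 1444.2 and 1586.1 with HSD17B14, against 1972.2 and 1932.4 with vector, a log2 change of -0.37 ± 0.14 (adjusted p 0.441). Of the 7, 4 had every HSD17B14 array below every vector array, namely CCT3, CCT4, CCT7 and CCT8. Over all members this separation was found in 13 of 37 towards lower and 5 towards higher values, where 20.6% and 19.5% of all probe sets separated so. Markers of the cells differed with the plasmid in this line too. VIM had 3675.6 and 3646.2 with HSD17B14, against 5325.8 and 4637.6 with vector. Of 4 mesenchymal markers 2 separated towards lower and 0 towards higher values. The one besides VIM was COL1A1, with 3.4 and 5.5 against 14.4 and 7.7, all under the floor. The list's summed signals, nearly all from VIM, were 3668.5 to 3686.7 with HSD17B14, against 4649.0 to 5369.8 with vector. SPARC was at 0.4 to 1.1. Of 5 epithelial markers 3 separated towards higher values, CDH1 and EPCAM among them, and 1 towards lower, with sums of 4272.0 to 4312.7 with HSD17B14, against 4421.5 to 5902.4 with vector. In ZR75-1, ERBB2 had 110.9 and 95.9 with HSD17B14, against 226.0 and 141.2 with vector. GRB7 had 18.8 and 8.9 there, against 67.7 and 53.4. Of 5 epithelial markers 2 separated towards higher and 3 towards lower values in ZR75-1, where 20.7% and 26.3% of all tested probe sets did. The part of these markers in the CCT and other members' values was not tested. The SKBR3-labelled vector array 1, which stands apart, held the highest CCT7 signal. Without vector array 2, which leaves array 1 as the lone vector array of the line and assumes that it varies like the other groups, CCT7 passed (log2 change -0.8, adjusted p 0.0393). Without vector array 1 it did not (log2 change -0.39, adjusted p 0.632).

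Among the other roles in that line, HSPD1 had 1608.1 and 1694.3 with HSD17B14, against 2009.6 and 2087.2 with vector, below on both arrays (log2 change -0.31 ± 0.13, adjusted p 0.531). HSPB1 had 489.6 and 407.8 with HSD17B14, against 340.9 and 350.9 with vector (log2 change 0.37 ± 0.16, adjusted p 0.529). HSPA9, the mitochondrial HSP70, had 307.2 and 251.2 with HSD17B14, against 159.7 and 254.5 with vector, and the groups overlap (log2 change 0.46 ± 0.21, adjusted p 0.56). DNAJC4 had 16.5 and 26.6 with HSD17B14, against 1.9 and 14.9 with vector. Only 26.6 lies above the floor, so no fold is given, and DNAJC4 did not pass (adjusted p 0.577). The members' median was -0.17, against -0.01 over all probe sets, with 14 above 0 and 23 below. Averaged over both lines, the smallest p-values belonged to CCT7 (log2 change -0.39 ± 0.11, adjusted p 0.136), DNAJA1 (0.26 ± 0.10, 0.249), HSPA9 (0.37 ± 0.15, 0.278), HSPE1 (0.32, 0.325), DNAJC4 (1.3, 0.4, but 0.28 with signals raised to the floor) and HSPB2 (adjusted p 0.539, under the floor on every array). DNAJA1 is a constitutive J-domain partner of HSP70. Without SKBR3-labelled vector array 2, HSPA9 (log2 change 0.53) and CCT7 (log2 change -0.49) passed in the average. That fit leaves vector array 1, which stands apart, as the lone vector array of the line. HSPA9 had 159.7 on array 1 and 254.5 on array 2.

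**Figure D2:**
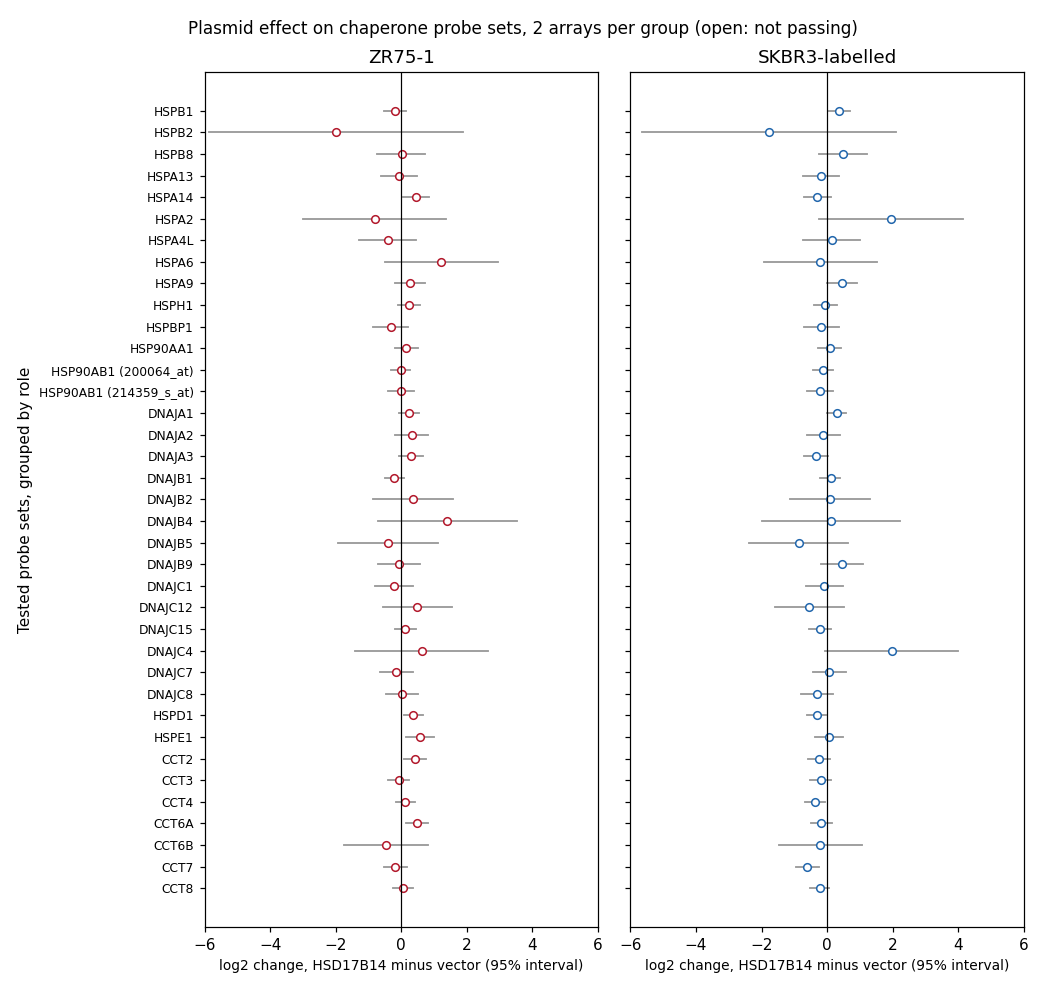
Plasmid effect, HSD17B14 minus vector on the log2 scale, for each tested member in ZR75-1 and in the SKBR3-labelled line. Points are limma estimates with 95% intervals from 2 arrays per group. No member passed in either line, and the 7 CCT probe sets all lie below 0 in the SKBR3-labelled line.

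HSPD1 and several chaperonin members had opposite signs in the 2 lines, and the test of the difference between the lines did not pass for any. For the difference of plasmid effects, ZR75-1 minus SKBR3-labelled, 0.624% of all probe sets were called (4 or 0.064% higher and 35 or 0.56% lower), against 0 of 37 members. HSPD1 had the smallest adjusted p, 0.153, with a difference of 0.69 ± 0.19 on the log2 scale. CCT6A (0.66, adjusted p 0.244), CCT2 (0.66, 0.245), HSPA14 (0.76, 0.265), DNAJA3 (0.65, 0.291) and CCT4 (0.5, 0.31) followed. At an unadjusted p under 0.05 there were 6 members with a higher and 1 with a lower difference, where 5.78% and 7.26% of all probe sets fell there. The median difference was 0.21 over the members and -0.05 over all probe sets. The actin 3'/5' signal ratio, a sign of RNA integrity, was 2.83 and 2.663 with HSD17B14, against 2.033 and 2.019 with vector, in ZR75-1. It was 2.281 and 3.091 with HSD17B14, against 3.602 and 2.996 with vector, in the SKBR3-labelled line, where the groups overlap. The GAPDH 3'/5' ratio went the other way in ZR75-1, with 0.896 and 0.883 with HSD17B14, against 1.084 and 1.039 with vector. In the SKBR3-labelled line it was 0.812 and 0.886, against 0.912 and 0.868. With the actin ratio as a covariate HSPD1 had a difference of 0.64 (adjusted p 0.959), CCT6A 0.79, CCT2 1.16, HSPA14 0.59, DNAJA3 0.26 and CCT4 0.3 (adjusted p 0.886 to 0.996 for these 5). The actin ratio goes with the plasmid in ZR75-1, so this fit cannot tell the ratio and the plasmid apart there.

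Interferon-response genes differed with the plasmid beside these values. Of the 7 measured, 4 in ZR75-1 and 7 in the SKBR3-labelled line had both HSD17B14 arrays above both vector arrays. Over all tested probe sets, 20.7% in ZR75-1 and 19.5% in the SKBR3-labelled line did so. MX1 separated the other way in ZR75-1, with 1586.3 and 1486.9 with HSD17B14, against 1758.7 and 1721.7 with vector. The list's summed signal was 14966.8 to 17251.9 with HSD17B14, against 10942.0 to 12871.9 with vector, in ZR75-1, and 15446.1 to 16815.9 against 8079.8 to 8116.3 in the SKBR3-labelled line. IFITM1 had 949.8 and 998.0 with HSD17B14, against 460.7 and 479.0 with vector, in ZR75-1, and 2956.0 and 3296.4 against 668.6 and 717.0 in the SKBR3-labelled line. The part of these genes in the members' values was not tested.

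The lines themselves, in contrast, differed widely in chaperone signals. Averaged over both plasmids (4 arrays per line), 9 of 37 members were higher and 12 lower in ZR75-1 than in the SKBR3-labelled line, and 16 did not pass. That is 56.8% of members, beside 49.2% of all tested probe sets (23% higher and 26.1% lower), so the count of members is close to the background of 2 unlike cell lines. At an unadjusted p under 0.05, 10 members were higher and 12 lower, beside 25.8% and 28.9% of all. The median log2 difference was 0.17 over the members and -0.04 over all. In bulk RNA, fewer cells of a type and less RNA per cell cannot be told apart. Of the 21 called members, 13 were called under all 20 alternatives. When the actin ratio was added to the fit, 14 members were called, 5 higher and 9 lower, in place of 21.

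The small heat shock proteins held the largest differences. HSPB1 (HSP27) had 3616.0 and 3048.9 with HSD17B14 and 3430.8 and 4118.7 with vector in ZR75-1, against 489.6 and 407.8 with HSD17B14 and 340.9 and 350.9 with vector in the SKBR3-labelled line. That is a mean of 3553.6 ± 444.6 against 397.3 ± 68.2 (SD, n = 4 each), and the fit on the log2 scale gave 8.99-fold higher in ZR75-1 (log2 difference 3.17 ± 0.11, adjusted p 1.35e-09). HSPB8 (HSP22), the partner of BAG3 in chaperone-assisted autophagy, had 681.9, 667.6, 613.2 and 735.9 in ZR75-1, against 15.9, 27.2, 10.3 and 21.2 in the SKBR3-labelled line. The lines lie far apart, and the SKBR3-labelled signals straddle the floor, with 2 of 4 above it. The log2 difference was 5.26 ± 0.24 (adjusted p 1.03e-08), 38.4-fold, and 3.81 when 32 was added to every signal before the logarithm. HSPB8 and HSPB1 kept their direction among arrays of high spike-in signal (log2 differences of 4.8 and 3.01) and among those of low spike-in signal (5.72 and 3.18). Only HSD17B14 array 2 of the ZR75-1 arrays had high spike-in signal, so the first pair of values rests on it alone for that line. HSPB2 did not pass and was under the floor on every array.

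**Figure D3:**
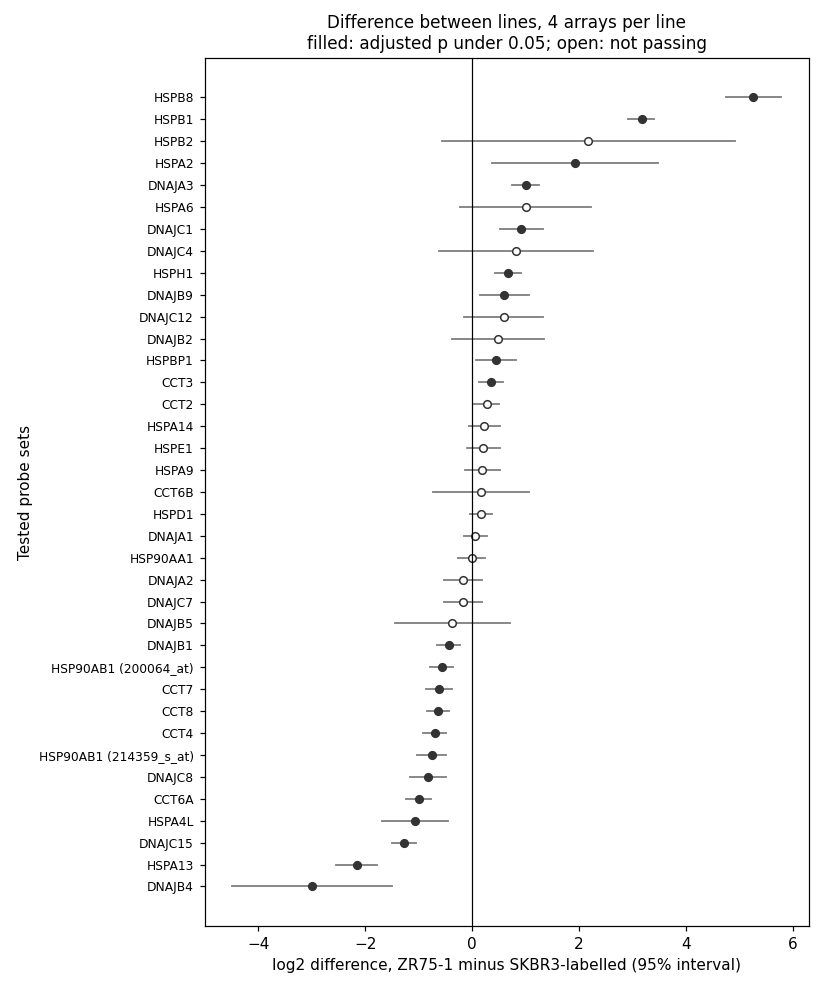
Line difference, ZR75-1 minus SKBR3-labelled averaged over both plasmids, on the log2 scale for each tested member, with 95% intervals from 4 arrays per line. HSPB8 and HSPB1 lie far to the right, and DNAJB4 and HSPA13 far to the left.

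Among the HSP70 and HSP110 genes, 2 of 7 were higher in ZR75-1, 2 lower and 3 did not pass. That is 57.1% called, beside 49.2% of all tested probe sets (23% higher and 26.1% lower), so the counts are near the background. HSPA13 (STCH), a microsomal HSP70-like ATPase, had 44.7, 30.3, 37.6 and 39.3 in ZR75-1, against 154.1, 162.4, 165.7 and 192.4 in the SKBR3-labelled line. The signal was 4.47-fold lower in ZR75-1 (log2 difference -2.16 ± 0.18, adjusted p 1.26e-06), and -1.52 with 32 added to every signal. HSPA4L, an HSP110, had 28.4, 33.9, 32.3 and 52.7 in ZR75-1, against 80.4, 76.8, 48.7 and 104.5 in the other line, and the lowest of the second set lies below the highest of the first (log2 difference -1.07 ± 0.28, adjusted p 0.00758). In the vector controls alone HSPA4L did not pass (-0.79, adjusted p 0.136). HSPH1 was higher in ZR75-1, with a mean of 682.5 ± 94.2 against 427.8 ± 31.8 (log2 difference 0.67 ± 0.11, adjusted p 0.000365). HSPA2, best known from the testis, had 18.5, 11.8, 33.8 and 19.9 in ZR75-1, against 12.1, 8.5, 1.0 and 6.8, all under the floor. HSPA2 passed the filter on low signals only through 3 ZR75-1 arrays. The lines overlap, as 11.8 in ZR75-1 lies under the floor and below 12.1, so no least fold is given. With signals raised to the floor the log2 difference was 0.3 (adjusted p 0.209). The main fit called HSPA2 higher in ZR75-1 (log2 difference 1.93 ± 0.71, adjusted p 0.0411). That call was lost under 14 of 19 alternatives, among them leaving out SKBR3-labelled vector array 1 (log2 difference 1.24, adjusted p 0.0793), while without vector array 2 of that line it was 2.62 (adjusted p 0.00599). HSPA9 and HSPA14 did not pass, with log2 differences of 0.19 and 0.23, nor did HSPA6 (adjusted p 0.163). No fold is given for HSPA6 because all 4 SKBR3-labelled arrays and the ZR75-1 mean (16.8) lay under the floor. HSPBP1, a nucleotide exchange factor that the letters HSPB bring in although it is no small heat shock protein, was higher (log2 difference 0.45 ± 0.17, adjusted p 0.0496), a call at the threshold that 15 of 20 alternatives lost.

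Both HSP90AB1 probe sets were lower in ZR75-1 while HSP90AA1 did not pass. HSP90AB1, the constitutive HSP90, had 1803.8 to 1905.0 in ZR75-1, against 2590.7 to 2973.7 in the SKBR3-labelled line, on the probe set with the higher signal (log2 difference -0.57 ± 0.10, adjusted p 0.000399), and the second probe set gave -0.75 ± 0.13 (adjusted p 0.000363). HSP90AA1 had 2766.5 to 3464.0 in ZR75-1, against 2853.8 to 3506.4 (log2 difference -0.01, 95% interval -0.26 to 0.24).

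The J-domain proteins, 14 of them tested, split into 3 higher in ZR75-1, 4 lower and 7 that did not pass. Among all tested probe sets 23% were higher and 26.1% lower, so these counts are near the background. DNAJC15, a mitochondrial inner membrane J-domain protein linked to import and respiration, had 171.3, 176.3, 145.7 and 173.5 in ZR75-1, against 372.2, 370.8, 436.0 and 426.9 (2.41-fold lower, log2 difference -1.27 ± 0.11, adjusted p 1.38e-06). DNAJA3, also mitochondrial, went the other way, with a mean of 331.6 ± 52.3 in ZR75-1 against 165.2 ± 26.4 in the SKBR3-labelled line (2.01-fold higher, log2 difference 1.01 ± 0.12, adjusted p 2.32e-05). Neither pair of lines overlapped. DNAJC1, of the endoplasmic reticulum, had 118.0, 140.9, 120.0 and 188.3 in ZR75-1, against 61.2, 83.2, 74.7 and 76.9 (log2 difference 0.92 ± 0.18, adjusted p 0.0013). DNAJC8, a nuclear protein tied to splicing, had 92.7 to 141.4 in ZR75-1, against 180.4 to 241.8 (log2 difference -0.83 ± 0.16, adjusted p 0.000893). DNAJB4 had 7.1, 9.9, 0.5 and 9.9 in ZR75-1, all under the floor, against 50.4, 35.8, 55.0 and 27.9, so it was at least 2.32-fold lower (log2 difference -2.99 ± 0.68, adjusted p 0.00333). It passed the filter on low signals only through the SKBR3-labelled arrays. The fitted DNAJB4 value depends on the low signals and ran to -2.16 without ZR75-1 vector array 1 and -3.82 without ZR75-1 vector array 2, and to -1.21 with signals raised to the floor, all of them called. The call was lost with the actin covariate (-2.95, adjusted p 0.0705) and on the HSD17B14 arrays alone (-2.34, adjusted p 0.0874). DNAJB1 (log2 difference -0.44 ± 0.10, adjusted p 0.00288) was lower, a call lost under 2 of 20 alternatives, and DNAJB9, an endoplasmic reticulum cofactor of HSPA5, was higher (0.6 ± 0.21, adjusted p 0.0331), a call lost under 10 of 20 alternatives. Without SKBR3-labelled vector array 1, DNAJB9 had 0.38 (adjusted p 0.105).

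Among the chaperonins, 4 of 7 tested CCT probe sets were lower in ZR75-1 and 1 was higher. That is 71.4% called, beside 49.2% of all tested probe sets (23% higher and 26.1% lower), in a set of only 7. CCT6A had 328.6, 403.2, 259.2 and 258.7 in ZR75-1, against 556.5, 601.5, 600.1 and 705.1 (2-fold lower, log2 difference -1.0 ± 0.11, adjusted p 1.17e-05). CCT4 (log2 difference -0.7 ± 0.10, adjusted p 7.85e-05), CCT8 (-0.64 ± 0.09, adjusted p 0.000156) and CCT7 (-0.62 ± 0.11, adjusted p 0.000671) were lower too, each with no overlap between the lines. The CCT7 call was lost with the actin covariate (-0.46, adjusted p 0.0777) and on the HSD17B14 arrays alone (-0.42, adjusted p 0.067). CCT3 was higher by 0.35 ± 0.10 (adjusted p 0.0134), a call lost under 7 of 20 alternatives, and CCT2 (0.27, adjusted p 0.0559) and CCT6B (0.17, adjusted p 0.761) did not pass. CCT6B aside, these are subunits of 1 ring that is known to hold each of them in equal number. Neither mitochondrial chaperonin passed: HSPD1 had 0.16 (95% interval -0.04 to 0.37) and HSPE1 0.21 (-0.1 to 0.52).

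Of the 37 members, 5 had all 4 ZR75-1 arrays above the other 4 and 11 below, where 19.8% and 22.7% of all tested probe sets did. Centring on the array median gave 6 higher and 12 lower calls, and quantile normalization 7 and 12, in place of 9 and 12.

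The partners of the chaperones showed 1 change with the plasmid. Of 56 listed genes of the pathway that are no members, 44 were tested, and BAG6 alone was called, lower in ZR75-1 and in the average, beside 1.52% and 1.5% of all tested probe sets called. BAG6 encodes a holdase that guides tail-anchored and misfolded membrane proteins. It had 114.2 and 113.2 with HSD17B14, against 274.4 and 238.0 with vector, in ZR75-1 (log2 change -1.17 ± 0.21, adjusted p 0.0273), and 368.0 and 340.7 against 527.7 and 329.7 in the SKBR3-labelled line (log2 change -0.24 ± 0.21, adjusted p 0.888). The groups are separate in ZR75-1 and overlap in the other line. The difference between the lines did not pass (-0.93 ± 0.29, adjusted p 0.219), and the average was -0.7 ± 0.15 (adjusted p 0.0374). The ZR75-1 call held under 8 of 19 alternatives, with an adjusted p of up to 0.195, and it was lost when any of the 4 ZR75-1 arrays was left out (adjusted p 0.0517 to 0.104). The average was called under 5 of 18, with an adjusted p of up to 0.28. FKBP4, an HSP90 immunophilin of steroid receptors, had 620.4 and 752.7 with HSD17B14, against 925.9 and 1042.8 with vector, in ZR75-1 and did not pass (log2 change -0.52 ± 0.16, adjusted p 0.11).

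**Figure D4:**
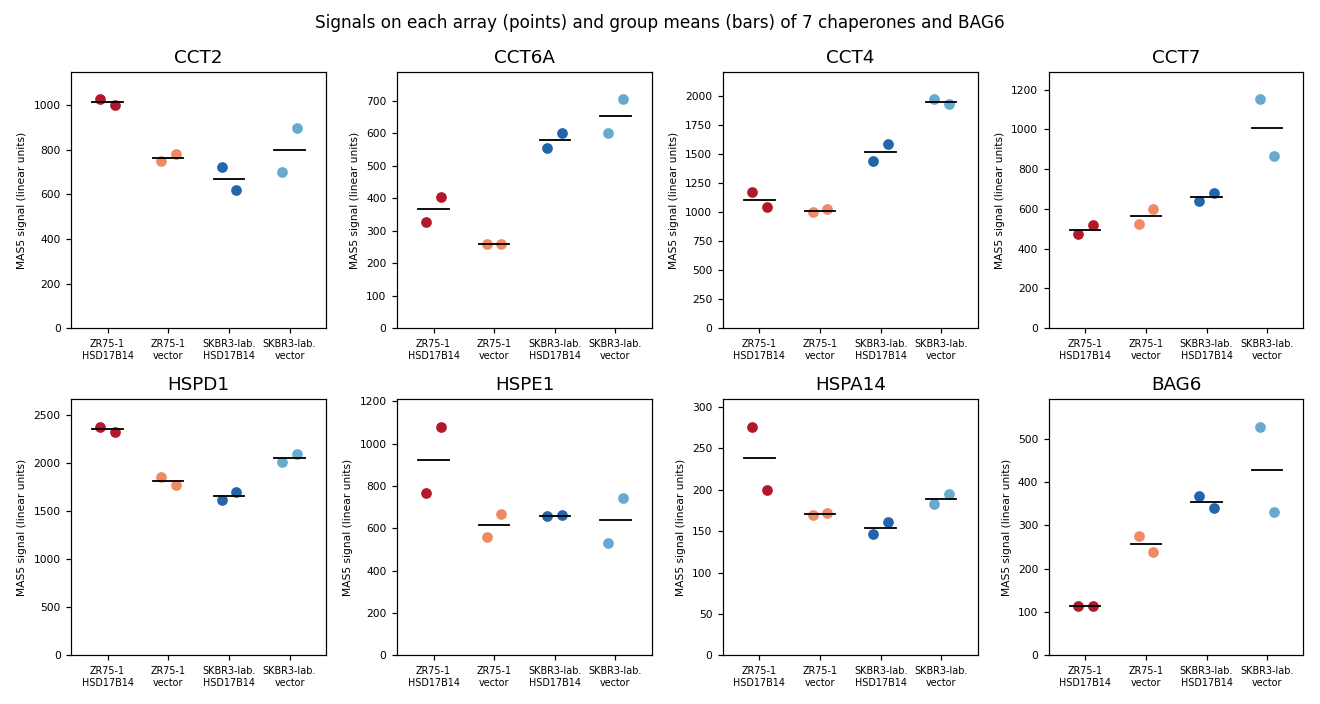
MAS5 signal in linear units of 7 members and of BAG6 on each array, by group. Points are arrays and bars are group means of 2 arrays. CCT6A is lower in ZR75-1 than in the SKBR3-labelled line, BAG6 is lower with HSD17B14 in ZR75-1, and HSPD1 lies higher with HSD17B14 in ZR75-1 and lower with it in the SKBR3-labelled line without passing the test in either.

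Between the lines, 12 of the 44 were higher in ZR75-1 and 14 lower, where 23% and 26.1% of all tested probe sets were, so these counts too are near the background. FKBP4 was the clearest, with 620.4 to 1042.8 in ZR75-1, against 107.9 to 158.4 in the SKBR3-labelled line (log2 difference 2.68 ± 0.11, adjusted p 6.29e-09). BAG3, the partner of HSPB8, had 476.7 to 582.6 against 312.0 to 401.6 (log2 difference 0.6 ± 0.11, adjusted p 0.000538). ST13 (log2 difference 1.18), STUB1 (1.17), TRAP1 (0.86) and HSBP1 (0.94), an inhibitor of heat shock factor, were also higher. BAG2, an inhibitor of STUB1, had 0.7 to 18.9 in ZR75-1, against 209.3 to 269.0, a log2 difference of -5.43 ± 0.70, or -3.7 with signals raised to the floor. Further co-chaperones lower in ZR75-1 were STIP1 (log2 difference -0.42), CDC37 (-0.68), PPID (-0.95), TTC1 (-0.99) and BAG6 (-1.17), and FKBP5, which had a difference of only -0.06 with signals raised to the floor. Calls were lost under 9 of 20 alternatives for STIP1, 3 for CDC37, 2 for ST13 and 11 of 19 for FKBP5.

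Prefoldin, which delivers unfolded actin and tubulin to CCT, had 3 of 5 tested genes lower in ZR75-1 and 0 higher (26.1% and 23% of all probe sets), PFDN1 (log2 difference -1.02 ± 0.15), PFDN2 (-0.67 ± 0.12) and PFDN4 (-1.1 ± 0.17). The PFDN2 call was lost under 1 of 20 alternatives. Folding genes of the endoplasmic reticulum gave 5 of 13 higher and 3 lower, beside 23% and 26.1% of all probe sets. SDF2L1, which works with DNAJB11, had 459.7 to 706.0 in ZR75-1, against 100.3 to 160.9 (log2 difference 2.07 ± 0.13), and XBP1, a transcription factor of the unfolded protein response that is high in estrogen receptor positive tumours, 798.3 to 1067.9 against 158.8 to 275.8 (2.11 ± 0.15). The disulfide isomerases P4HB (1.44), PDIA3 (1.0) and PDIA4 (0.76) were higher as well, while ERO1A (-1.66 with signals raised to the floor, which no ZR75-1 array exceeded), FKBP2 (-0.59) and SDF2 (-0.54) were lower. The SDF2 call was lost under 14 of 20 alternatives (adjusted p up to 0.32), and those of FKBP2 and PDIA3 under 2 each. CLPX (-0.57) and VCP (0.3) passed at adjusted p-values of 0.0427 and 0.044, and these calls were lost under 14 and 13 of 20 alternatives (adjusted p up to 0.542 and 0.363).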

How the data were processed

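The authors deposited linear signal intensities for each probe set. The submitters' processing notes name MAS5, without a version. Genes were named from the platform annotation, which is old, and probe sets with several symbols were left out (388, with 518 that carry none here). Signals under 1 were raised to 1 and log2 was taken. A probe set was tested if above its array's 40th percentile (12.1 to 17.6) on at least 2 arrays, which left 6251. The floor of 17.6 is the highest of these percentiles. Folds against a group wholly under it are given as at least N-fold where every array of the other group lies above it. limma 3.58.1 (R 4.3.3) fitted 4 group means on all 8 arrays and eBayes used a prior that depends on the mean (7.39 degrees of freedom, beside 4 residual ones). P-values were Benjamini-Hochberg adjusted over all 6251, and the ± after a log2 value is a standard error from limma. The fit was tested on simulated data. There it called 24.2% of 2-fold and 53.2% of 4-fold plasmid changes in ZR75-1. In the SKBR3-labelled line it called 24.7% and 52.7%. The number of arrays limits the precision.

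The members, roles and pathway lists were chosen with earlier results of these data known. Members named are those called, or, where over 12 were called, the 6 with the largest change each way, or, where fewer than 6 were called, the 6 with the smallest p, plus a fixed panel by role. Pathway genes are counted once, by the probe set with the highest mean. Replicate numbers do not pair the samples (correlations of deviations -0.04 to 0.06), so no block was used. Alternatives covered scaling, filter, floor, prior, a replicate block, spike-in level, the actin ratio, each array left out and each plasmid or line alone. Python 3.11.15 and matplotlib 3.10.9 drew the figures.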

Additional observations from a re-analysis of the deposited data

How the results depend on the processing

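Counts of called members were 0 in every plasmid comparison, with these exceptions: 1 in ZR75-1 with signals raised to the common floor (HSPA6), 0 to 1 in the SKBR3-labelled line and 0 to 2 in the average when 1 array was left out (1 and 2 without SKBR3-labelled vector array 2: CCT7, and CCT7 with HSPA9). Leaving out 1 array gave 0 to 0 in ZR75-1 and for the difference of plasmid effects, and 17 to 23 for the lines, where the count was 21 and was 14 (5 higher and 9 lower) with the actin covariate. With the replicate number as a block, a check of pairing, the plasmid comparisons had 0 called members and the lines 19 (7 higher and 12 lower). HSPA2 and HSPBP1 lost their line calls under that block (adjusted p 0.0506 and 0.057). Over all probe sets, counts of calls moved by over 1.5 times. In ZR75-1 they were 95, against 262 with 32 added to every signal, 152 for the line fitted alone, 62 with no filter, 23 with median centring, 19 with the spike-in block, 13 with a prior not dependent on the mean, 1 with the actin covariate and 13 to 134 with 1 array left out. In the SKBR3-labelled line they were 62, against 9 with that prior, 38 with the actin covariate and 40 to 125 with 1 array left out. In the average they were 94, against 165 with 32 added, 12 with that prior and 58 to 221 with 1 array left out. For the difference they were 39, against 67 with 32 added, 20 with no filter, 7 with median centring, 0 with that prior, 0 with the actin covariate and 5 to 42 with 1 array left out. For the lines they were 3073, against 1857 with the actin covariate. The cause was not tested. No member's value reversed its sign where it was called. Arrays of 2 per group, and signals near the floor, limit small changes and low members.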
